A study of Homo sapiens and Mus musculus with 20 samples.

Results

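The 39 protein-coding HOX genes of the 4 human clusters were followed through 16 lists of regions enriched in chromatin immunoprecipitation sequencing (ChIP-seq). They were taken by symbol, HOXA, HOXB, HOXC or HOXD followed by a number, from 19974 protein-coding genes of RefSeq (GRCh38). A gene's window was its body extended by 2.5 kb on each side, and a gene was called marked in a library when at least 1 region of that library's list overlapped the window by at least 1 bp. The 4 clusters span 547945 bp and all gene windows together 1331.72 Mb, so HOX windows are shorter on average. A longer window has more room for a region, and the shares of marked genes were not adjusted for this. This assigned 148 of 805893 regions to HOX genes. Neighbouring HOX genes share chromatin: 28 of the 39 windows overlapped the window of another HOX gene, and 48 of the 148 regions were assigned to more than 1 gene, so the 39 genes are not 39 independent observations.

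The cells were ARP1, a human multiple myeloma line, with the histone demethylase gene KDM6A labelled knock out (KO), JmjD-dead (titled H1146E) or wild type (WT). All 3 genotypes had libraries for H3K27ac, for H3K27me3 and for input DNA, and KO and WT cells also for H3K4me1. A KDM6A antibody was used on ARP1 KO cells, on ARP1 WT cells and on KARPAS, a line also labelled multiple myeloma with wild-type KDM6A. The HA antibody libraries came from ARP1 cells called HA-tagged in the title but knock out in the genotype field, and from ARP1 cells labelled wild type. The labels do not say how the alleles were made or whether a line came from 1 clone, and the title of the KO H3K4me1 library differs in form from those of the other KO libraries. Each group had 1 library, so the values below are set side by side without a test, and the 95% intervals (exact Clopper-Pearson) cover counting error only.

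HOX genes encode homeodomain transcription factors that give body segments and cell lineages their identity. They lie in 4 clusters in which gene order follows the order of use along the body axis, from paralog group 1 (anterior) to group 13 (posterior). In cells that do not use them, Polycomb proteins keep the clusters silent under H3K27me3. KDM6A (also called UTX) removes that methyl mark and sits in the KMT2C and KMT2D complexes, which place H3K4me1 at enhancers and work beside the enzymes that acetylate the same lysine as H3K27ac.

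After the authors' filtering, depth in M fragments (tags for the single-end HA and KDM6A libraries) was 25.6 (KO), 31.2 (JmjD-dead) and 30.8 (WT) for H3K27ac, 6.60, 10.4 and 5.03 in the same genotype order for H3K27me3, and 25.6 (KO) and 34.0 (WT) for H3K4me1. It was 37.4 for KARPAS KDM6A, 20.2 for KO and 11.9 for WT ARP1 KDM6A, 25.3 for HA-tagged and 16.6 for WT HA, and from 0.223 to 0.725 for input. The labelled cell type was checked with H3K27ac: all 8 plasma cell genes examined (among them SDC1, TNFRSF17 and XBP1) were marked in each of the 3 ARP1 genotypes. H3K27ac marked 2, 1 and 2 of 5 B cell genes, 3, 3 and 3 of 5 T and NK cell genes, 1, 1 and 2 of 4 stromal genes and 3, 3 and 2 of 4 epithelial genes in KO, JmjD-dead and WT cells. Of all protein-coding genes it marked 71.3%, 69.3% and 69.0% in the same order. At the KDM6A gene itself, the KDM6A antibody gave regions of 216 bp in KO and 296 bp in WT cells, and H3K27ac covered 11745 bp in KO, 9339 bp in JmjD-dead and 9699 bp in WT cells; such lists do not show whether the gene's product was lost.

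The share of HOX genes with H3K27ac was below that of all genes in each genotype, while the share of cluster length covered was above that of all gene windows. H3K27ac marked 23 of the 39 HOX genes in KO cells (59.0%, 95% interval 42.1 to 74.4), 17 in JmjD-dead cells (43.6%, 27.8 to 60.4) and 22 in WT cells (56.4%, 39.6 to 72.2). Over all protein-coding genes the shares were 71.3% in KO, 69.3% in JmjD-dead and 69.0% in WT cells. The all-gene share lay within the HOX interval in KO and WT cells and above it in JmjD-dead cells, and the 3 HOX intervals overlap one another. By length, H3K27ac regions covered 45072 bp of the 4 clusters in KO cells, 35135 bp in JmjD-dead cells and 39527 bp in WT cells, which is 8.23%, 6.41% and 7.21% of the clusters' 547945 bp. Over all gene windows the covered share was 3.72%, 3.43% and 3.54%. The same 17 HOX genes of 39 were marked in all 3 genotypes (66.3% of all protein-coding genes), and 16 were marked in none of the 3 (26.2%).

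**Figure D1:**
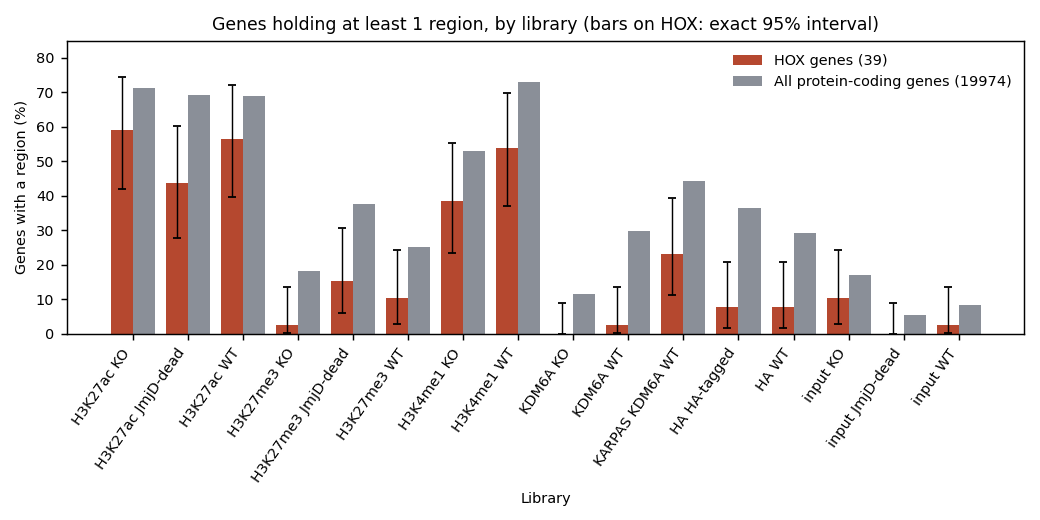
Share of genes with at least 1 region (%), by library, for the 39 HOX genes (red, with exact 95% intervals) and for all 19974 protein-coding genes (grey). The HOX share is the lower of the pair in every library, input included, 43.6 to 59.0% against 69.0 to 71.3% for H3K27ac, and it is 0 in the KDM6A library of KO cells. HOX windows are shorter on average than those of all genes, and the shares are not adjusted for window length.

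The HOXB cluster held most of the acetylation. It is the widest cluster (chr17:48528526-48728750, 10 genes), and H3K27ac covered 26311 bp of it in KO cells, 22579 bp in JmjD-dead cells and 25845 bp in WT cells, or 12.8% of its window in KO cells and 12.6% in WT cells. HOXD (chr2:176087487-176190907, 9 genes) followed with 10129, 6789 and 6584 bp in the same order, HOXA (chr7:27092993-27200091, 11 genes) had 4149, 2833 and 3470 bp, and HOXC (chr12:53938831-54056030, 9 genes) had 4483, 2934 and 3628 bp. In the other 3 clusters 9 genes were empty: HOXA2, HOXA5, HOXA11, HOXA13, HOXC8, HOXC12, HOXD1, HOXD8 and HOXD9 had no region in any of the 16 lists, input included. Of all protein-coding genes, 12.3% had none. In HOXB each gene had a region in at least 1 list, and HOXB1 was the only 1 of its 10 genes with no H3K27ac region in any genotype.

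**Figure D2:**
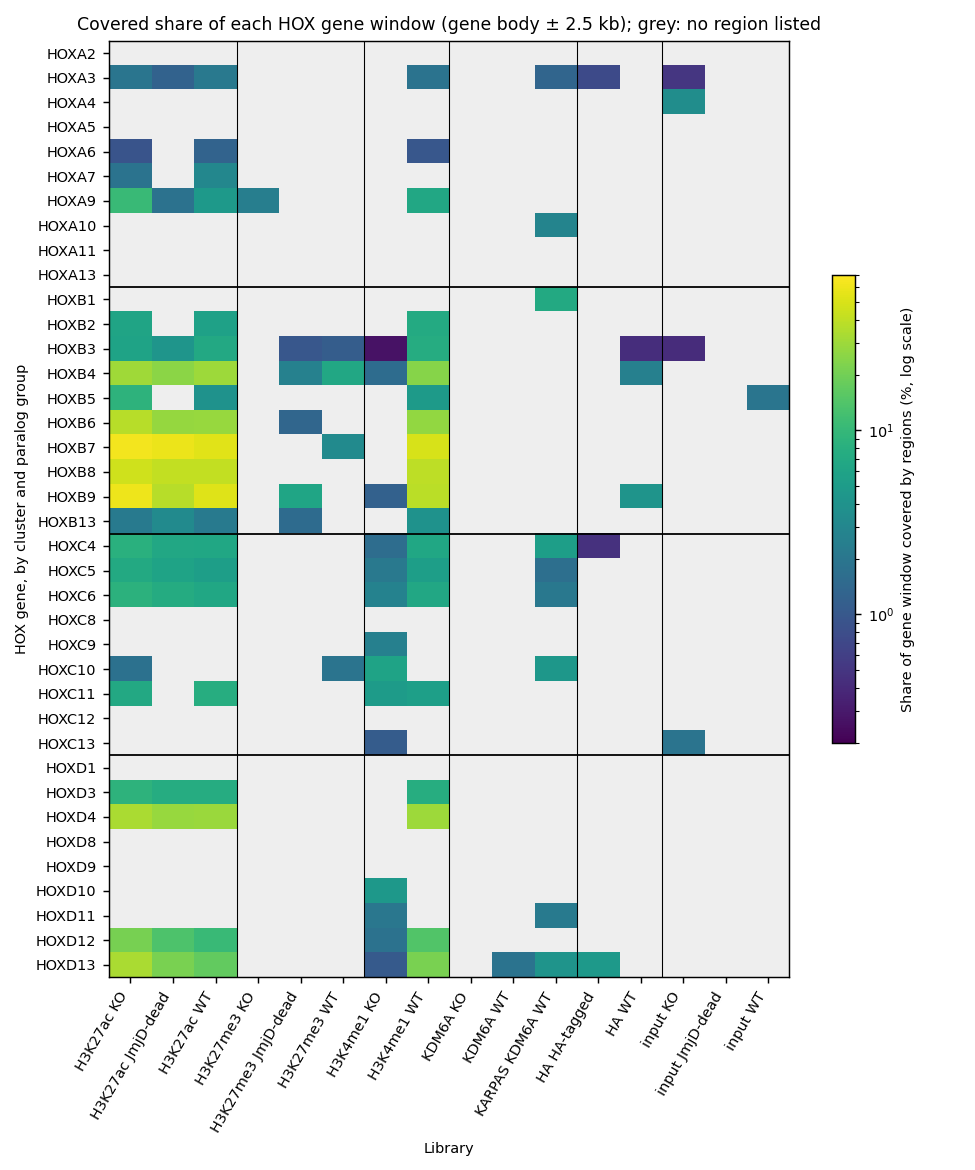
Share of each HOX gene window covered by regions (%, colour on a log scale) for the HOX genes (rows, by cluster and paralog group, with 1 HOXA gene left out) in the 16 libraries (columns). Grey cells hold no region; the HOXB7, HOXB8 and HOXB9 rows carry the highest H3K27ac and WT H3K4me1 shares, and HOXA2, HOXA5, HOXA11, HOXA13, HOXC8, HOXC12, HOXD1, HOXD8 and HOXD9 are grey throughout.

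By position, the share marked was highest for central genes in each genotype, though in JmjD-dead cells it was 53.3% against 50% of anterior genes. H3K27ac marked 5 of 8 anterior genes (paralog groups 1 to 3) in KO cells, 4 in JmjD-dead cells and 5 in WT cells. It marked 11, 8 and 11 of 15 central genes (groups 4 to 8), or 73.3%, 53.3% and 73.3%, against 71.3%, 69.3% and 69.0% of all protein-coding genes. It marked 7, 5 and 6 of 16 posterior genes (groups 9 to 13). The order of the classes was the same in the 3 genotypes, with small numbers in each class and with windows that share regions.

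HOXB9, a posterior gene, held the highest-ranked H3K27ac region of any HOX gene in each genotype. H3K27ac covered 6132 bp of its window in KO cells, 3828 bp in JmjD-dead cells and 5372 bp in WT cells. When the regions of a list are ranked by −log10 q and then by fold enrichment, its main region stood at rank 620 of 76242 in KO cells (0.813% of the list), rank 1161 of 74063 in JmjD-dead cells (1.57%) and rank 427 of 69127 in WT cells (0.618%). No other HOX region ranked higher in any of the 3 lists. In KO cells it ran over chr17:48623052-48628257 (5206 bp), in JmjD-dead cells over chr17:48624463-48628081 (3619 bp) and in WT cells over chr17:48623295-48628097 (4803 bp). The 3 versions end within the same stretch, and the JmjD-dead version starts farther in.

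Second by rank in each genotype was the region shared by HOXB7 and HOXB8, both central genes. Also in HOXB is HOXB4, known for expanding blood stem cells when overexpressed. HOXB7 had 5519 bp in KO cells, 5237 bp in JmjD-dead cells and 4760 bp in WT cells, and HOXB8 had 3657, 3233 and 3252 bp in the same order. HOXB4 had 2363, 1985 and 2302 bp from a region that also lies in the body of HOXB3, a gene whose RefSeq body spans HOXB4. HOXB6 had 5263, 3989 and 4063 bp. At these 5 genes, HOXB4 and HOXB6 to HOXB9, no library lacked the mark, and the highest value was the KO library's at each. HOXB13, the gene at the far posterior end and a known prostate factor, was covered only thinly, by 201, 295 and 196 bp.

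Between HOXB9 and HOXB13, outside every HOX gene window, lay another acetylated region, over the microRNA gene MIR196A1 (chr17:48632490-48632559, minus strand). miR-196 microRNAs are encoded inside HOX clusters and are known to target HOX transcripts. H3K27ac covered all 70 bp of the hairpin in each genotype, with a region of 2381 bp in KO cells (10.9% of the list by rank), 3387 bp in JmjD-dead cells (7.39%) and 3713 bp in WT cells (3.54%). Of the 8 microRNA hairpins of the clusters examined, MIR196A1 was overlapped in 6 of the 16 lists, MIR196A2 in 1 (62 bp of H3K27me3 in WT cells), and MIR10A, MIR10B, MIR196B, MIR615, MIR3185 and MIR7704 in none. The mature sequences from RefSeq (GRCh38.p14) are shown, since the gene of the first lies under the acetylated region, with the seed (bases 2 to 8) in capitals. The first is made by MIR196A1 and, with the same letters, by MIR196A2.
hsa-miR-196a-5p: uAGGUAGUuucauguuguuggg
hsa-miR-196b-5p: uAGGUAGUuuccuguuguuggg
hsa-miR-10a-5p: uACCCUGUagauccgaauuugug
The pair of miR-196 sequences share the seed and differ at 1 base, while miR-10a has another seed. H3K27ac lay on the MIR196A1 copy only, and neither on MIR196A2 in HOXC nor on MIR196B in HOXA.

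**Figure D3:**
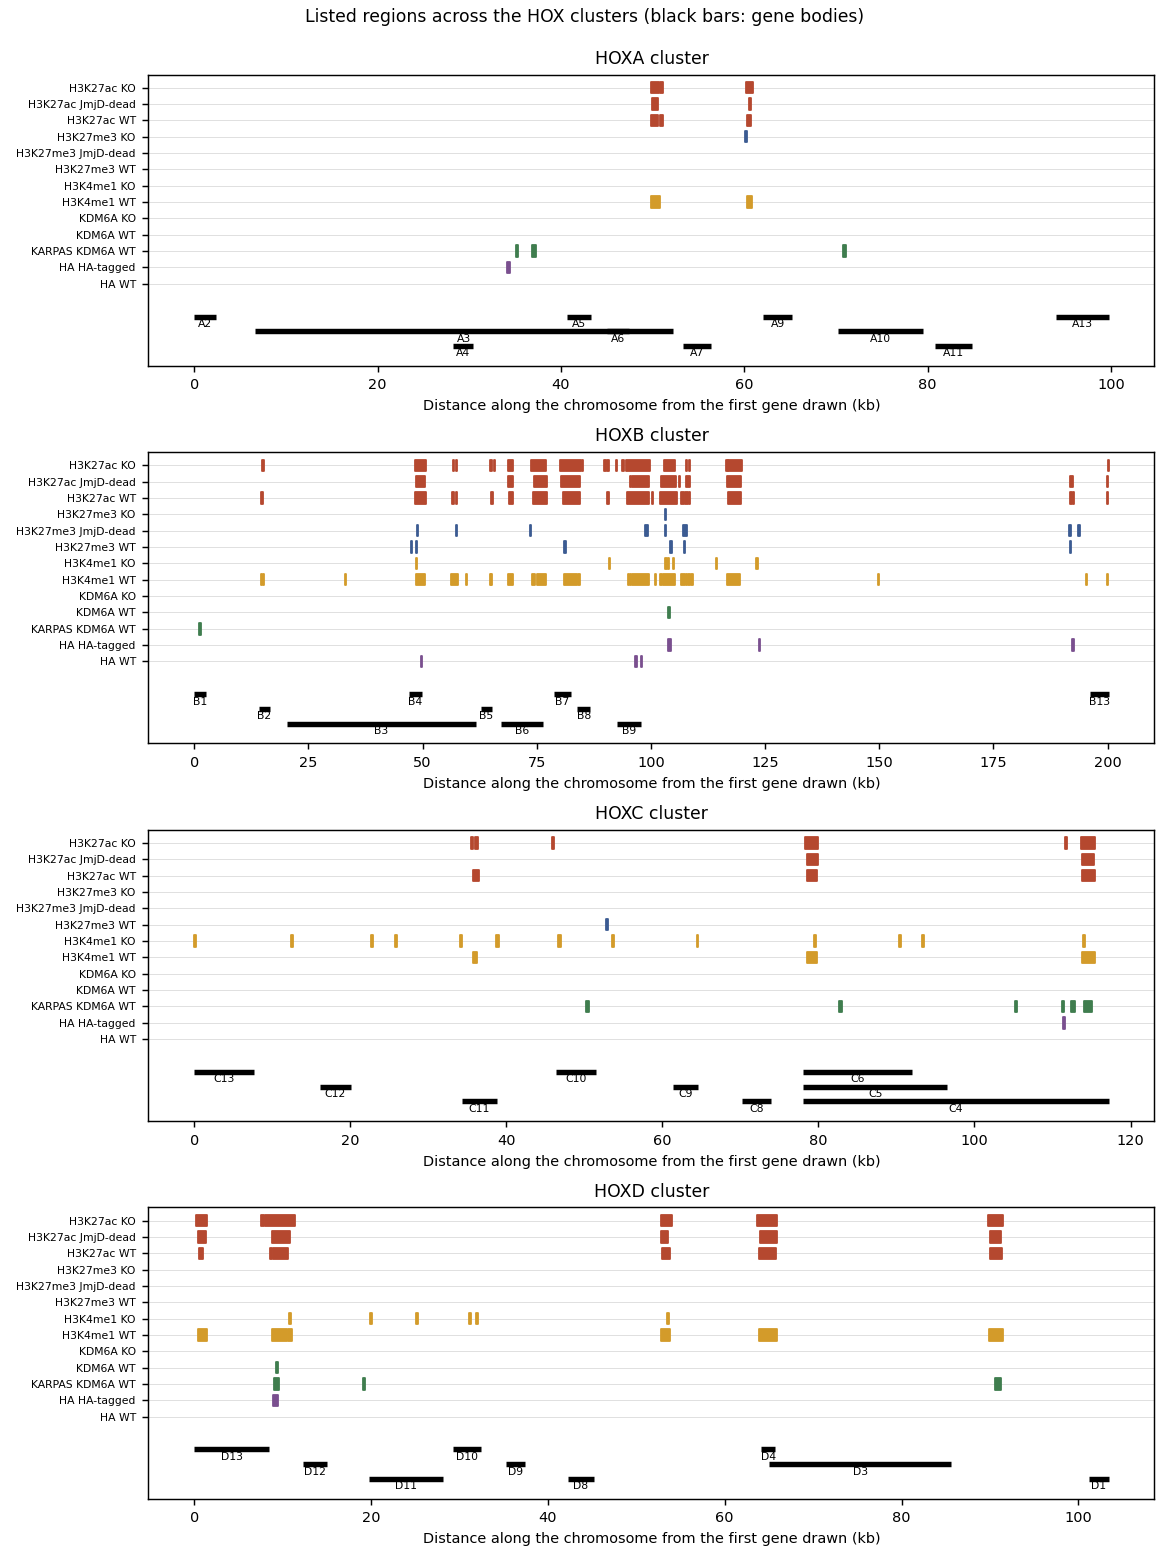
Regions of 13 ChIP libraries (coloured bars, rows) along each cluster, by distance in kb from the first gene drawn, with 1 HOXA gene and its regions left out; black bars are gene bodies, labelled by cluster letter and paralog number, and short regions are drawn at a minimum width. H3K27ac and WT H3K4me1 rows form matching blocks, widest over HOXB, while the KO H3K4me1 row holds scattered short regions, 13 of them in HOXC.

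In HOXD the acetylation fell into separate blocks at HOXD12 and HOXD13 and at HOXD3 and HOXD4, with no H3K27ac region at HOXD8 to HOXD11 or at HOXD1. HOXD13, which patterns digits, had 4485 bp in KO cells, 2911 bp in JmjD-dead cells and 2309 bp in WT cells. HOXD12 had 1607, 1052 and 821 bp, partly from the same region. Both genes were covered longest in KO cells and least in WT cells. Their shared region measured 3379 bp in KO cells (chr2:176095523-176098901, 4.05% of the list by rank), 2058 bp in JmjD-dead cells (11.3%) and 1757 bp in WT cells (chr2:176096359-176098115, 10.6%). HOXD3 and HOXD4 shared a region of 2238, 1906 and 1942 bp in KO, JmjD-dead and WT cells.

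In HOXC, H3K27ac lay at 1 end, on HOXC4, HOXC5 and HOXC6, which share a start in RefSeq, and on HOXC11. HOXC4 had the most of its cluster, with 3649 bp in KO cells, 2934 bp in JmjD-dead cells and 2897 bp in WT cells. HOXC5 and HOXC6 each had 1641, 1398 and 1241 bp from the same region. HOXC11 had 655 bp in KO cells, none in JmjD-dead cells and 731 bp in WT cells. In HOXA, HOXA9, a gene known for its part in leukaemia, had 863, 146 and 388 bp, and HOXA3 had 983, 634 and 1083 bp, in KO, JmjD-dead and WT cells. HOXA4, HOXA10, HOXC9, HOXC13, HOXD10 and HOXD11 had no H3K27ac region in any genotype, although each had a region in another list.

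Distances between acetylated regions and gene starts could be measured for a subset of the genes. RefSeq promoters with a strand were at hand for 20 HOX genes, and 10 of those were H3K27ac-marked in WT cells. None of the 10 is a HOXB gene, since HOXB1, unmarked, was the only HOXB gene among the 20. The start of HOXD4 lay inside a region in all 3 genotypes. At HOXC4 and HOXC5, whose start is shared, the nearest region lay 208 bp away in KO cells, 451 bp in JmjD-dead cells and 463 bp in WT cells. At the other 7 the distance in WT cells ran from 1131 bp (HOXA3) to 4472 bp (HOXA9). These distances hold for the first RefSeq start at hand of each gene, and another start can lie nearer. The body of HOXD13 begins at 176087487, before the start used (176092721), and a WT region lies at chr2:176088069-176088468. CpG-rich promoters are where Polycomb complexes are known to gather, so CpG dinucleotides were counted in the 250 bases before each start. The 10 promoters of unmarked genes held 7 to 40 CpG (median 23) and the 10 of marked genes 4 to 28 (median 18.0), which overlap, and the median over 15813 protein-coding promoters was 17.0. The promoters of HOXD4 (start inside a region), HOXC5 (start beside a region) and HOXA13 (no region in any list) are given 5′ to 3′ from RefSeq GRCh38.p14, with every CG in capitals.
HOXD4 promoter, plus strand, chr2:176151300-176151549: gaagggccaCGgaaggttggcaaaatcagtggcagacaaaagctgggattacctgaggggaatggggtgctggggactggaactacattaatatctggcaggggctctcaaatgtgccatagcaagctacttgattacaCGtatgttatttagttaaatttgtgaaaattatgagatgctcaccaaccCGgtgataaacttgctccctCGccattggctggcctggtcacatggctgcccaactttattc
HOXC5 promoter, plus strand, chr12:54016638-54016887: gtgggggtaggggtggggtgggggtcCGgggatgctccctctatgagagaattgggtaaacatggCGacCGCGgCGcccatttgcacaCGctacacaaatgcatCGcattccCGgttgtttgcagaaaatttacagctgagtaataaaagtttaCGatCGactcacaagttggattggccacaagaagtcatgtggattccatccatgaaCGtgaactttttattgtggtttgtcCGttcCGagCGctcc
HOXA13 promoter, minus strand, chr7:27200092-27200341: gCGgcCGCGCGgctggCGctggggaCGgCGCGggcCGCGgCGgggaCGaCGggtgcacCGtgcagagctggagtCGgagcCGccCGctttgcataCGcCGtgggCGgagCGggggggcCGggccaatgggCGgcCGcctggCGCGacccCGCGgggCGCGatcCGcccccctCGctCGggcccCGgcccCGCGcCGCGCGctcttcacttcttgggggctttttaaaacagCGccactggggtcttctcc
The HOXD4 window holds 4 CG (at least as many occur in 83.1% of protein-coding promoters), the HOXC5 window 14 (60%) and the HOXA13 window 40 (2.67%).

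The first genotype comparison set H3K27ac at HOX genes in the KO library beside that in the WT library. No HOX gene marked in WT cells was unmarked in KO cells (0 of 22, with 2.16% of all genes marked in WT), and 1 of the 17 unmarked in WT cells was marked in KO cells (12.4% of all genes unmarked in WT). That gene was HOXC10, a posterior gene of hindlimb and spinal cord, with a region of 179 bp in KO cells and none in WT cells. Of the 22 HOX genes marked in both, 17 had a longer covered length in KO cells and 5 a shorter one, with a median ratio of KO to WT of 1.15, against 1.09 over all genes marked in both. At least 1.5 times longer coverage in KO cells was found at 4 of the 22 (12.4% of all genes) and at least 1.5 times shorter coverage at 1 (6.19%). By cluster the ratio of KO to WT was 1.2 in HOXA, 1.02 in HOXB, 1.24 in HOXC and 1.54 in HOXD. Of the 30 KO regions at HOX genes, 8 overlapped no WT region (35.2% of all KO regions), and of the 23 WT regions, 1 overlapped no KO region (30.1% of all WT regions). With only regions of −log10 q of at least 5, 1 gene was lost and 4 were gained.

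In JmjD-dead cells 5 HOX genes marked in WT cells were unmarked (5 of 22, against 2.71% of all genes marked in WT) and 0 of 17 were gained (7.20%). The 5 were HOXA6, HOXA7, HOXB2, HOXB5 and HOXC11, genes of 3 clusters and of all 3 position classes. In WT cells they were thinly covered, by 96 bp at HOXA6, 237 bp at HOXA7, 424 bp at HOXB2, 296 bp at HOXB5 and 731 bp at HOXC11. All had been among the 8 HOX genes with under 1000 bp in WT cells, where 16.7% of all genes of that length were lost, and none of the 14 HOX genes with 1000 bp or more was lost. The same 5 genes were marked in KO cells, by 68 bp at HOXA6, 148 bp at HOXA7, 453 bp at HOXB2, 667 bp at HOXB5 and 655 bp at HOXC11.

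The HOXA6 call rested on a region's edge. Its window ends at position 27150274 of chromosome 7, and the region shared with HOXA3 began at 27150207 in KO cells, 27150318 in JmjD-dead cells and 27150179 in WT cells. The region was thus present in all 3 genotypes and out of the HOXA6 window in JmjD-dead cells alone. Of the 23 WT regions at HOX genes, 9 overlapped no JmjD-dead region (27.7% of all WT regions), and 0 of the 15 JmjD-dead regions lay apart from a WT region (29.1% of all JmjD-dead regions). Among the 17 HOX genes marked in both, 8 were longer and 9 shorter in JmjD-dead cells, with a median ratio of 0.994 (0.986 over all genes). Coverage at least 1.5 times longer in JmjD-dead cells was found at 1 of the 17 (5.98% of all genes) and at least 1.5 times shorter coverage at 3 (7.13%). With only regions of −log10 q of at least 5, 2 genes were lost in place of 5, and 3 were lost with gene bodies alone or with 10 kb on each side.

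**Figure D4:**
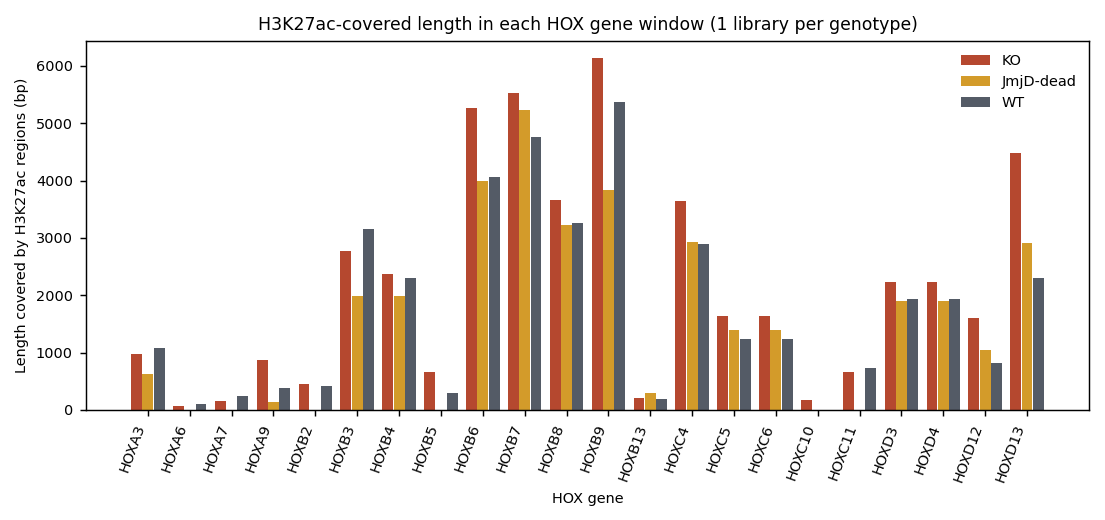
Length covered by H3K27ac regions (bp) in the windows of HOX genes marked in at least 1 genotype (1 HOXA gene left out), with KO, JmjD-dead and WT bars (1 library each). HOXB9 and HOXB7 are the highest, HOXD13 has 4485 bp in KO and 2309 bp in WT cells, and HOXA6, HOXA7, HOXB2, HOXB5 and HOXC11 have no JmjD-dead bar.

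H3K27me3, the mark KDM6A removes, marked a smaller share of HOX genes than of all genes in every genotype. It marked 1 HOX gene in KO cells (2.56%, 95% interval 0.0649 to 13.5, against 18.2% of all genes), 6 in JmjD-dead cells (15.4%, 5.86 to 30.5, against 37.6%) and 4 in WT cells (10.3%, 2.87 to 24.2, against 25.1%). Regions covered 588 bp of the clusters in KO cells, 3378 bp in JmjD-dead cells and 1968 bp in WT cells. This was 0.107%, 0.616% and 0.359% of their length, against 0.163%, 0.551% and 0.249% of all gene windows, so that by length KO was below all gene windows and the other two above. The lists hold 11865, 37236 and 17355 regions in that order, and list length bears on these values. With each pair of lists brought to equal length, the clusters held 1624 bp in JmjD-dead cells and 1968 bp in WT cells, so that the order turned round (log2 ratio 0.78 as listed and −0.28 at equal length), with 2 and 4 genes marked. They held 588 bp in KO cells and 1036 bp in WT cells (log2 ratio −1.74 as listed and −0.82 at equal length). Depth was 6.60 M fragments in KO, 10.4 M in JmjD-dead and 5.03 M in WT cells. JmjD-dead cells had both the greatest depth and the highest counts, while KO cells had lower counts than WT cells at greater depth. The part of depth was not tested. No HOX gene was marked in all 3 genotypes (9.98% of all genes) and 30 of 39 were marked in none (53.5% of all genes), with no region anywhere in HOXD.

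The marked genes differed from genotype to genotype. In KO cells the region lay at HOXA9 (197 bp), a gene unmarked in WT cells (9.49% of all genes unmarked in WT were gained in KO). The 4 genes marked in WT cells, HOXB3, HOXB4, HOXB7 and HOXC10, were all unmarked in KO cells (55.9% of all genes). HOXB3 and HOXB4 had 527 bp each in WT cells from the same regions, HOXB7 had 292 bp and HOXC10 194 bp. In JmjD-dead cells HOXB7 and HOXC10 were unmarked (2 of 4, against 24.5%), and 4 of 35 genes were gained (against 24.9%), among them HOXB6, HOXB9 and HOXB13 with 199, 633 and 138 bp. HOXB3 and HOXB4 stayed marked there, with 459 and 204 bp in JmjD-dead cells, against 527 and 527 bp in WT cells. None of these regions at HOX genes had a −log10 q of 5 or more in KO or JmjD-dead cells, and their height was 6 fragments at HOXA9 in KO cells and 5 to 9 in JmjD-dead cells. With the lists brought to equal length, 0 genes were gained in JmjD-dead cells.

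H3K27me3 and H3K27ac regions met at some HOX genes. The 1 KO gene and all 6 JmjD-dead genes with H3K27me3 also carried H3K27ac in the same genotype (96.7% and 90.7% of all genes), as did 3 of the 4 WT genes (94.7%), HOXC10 being the exception. At the level of regions, 1 of 1 in KO cells (70.8% of all H3K27me3 regions), 3 of 6 in JmjD-dead cells (50.6%) and 2 of 4 in WT cells (64.4%) overlapped H3K27ac, counts near the shares over all regions. If both marks were present, whether they sat on the same chromatin fragments or in different cells of the culture cannot be told apart in these lists. The H3K27me3 regions were called without a control, and whether they exceed background at H3K27ac sites was not tested.

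H3K4me1, the enhancer mark, covered much less of the clusters in KO than in WT cells. It marked 15 HOX genes in KO cells (38.5%, 95% interval 23.4 to 55.4, against 52.9% of all genes) and 21 in WT cells (53.8%, 37.2 to 69.9, against 73.0%). Covered length in the clusters was 4981 bp in KO cells and 38100 bp in WT cells. This was 0.909% and 6.95% of their length, against 0.986% and 3.30% of all gene windows. In HOXB it was 1214 bp in KO cells and 23722 bp in WT cells, and in HOXA 191 bp in KO cells and 3545 bp in WT cells. In HOXD it was 949 bp in KO cells and 7432 bp in WT cells, and in HOXC 2627 bp in KO cells and 3401 bp in WT cells. HOXC was therefore the cluster with the highest ratio of KO to WT, 0.772, against 0.0512 to 0.128 in the other 3. Most KO regions in HOXC overlapped no WT H3K4me1 region, and the overlaps measured 224 and 208 bp. The ratio thus compares lengths at mostly different places and does not show that the WT regions were kept.

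The mark was lost in KO cells at 11 of 21 genes (against 36.9% of all genes marked in WT): HOXA3, HOXA6, HOXA9, HOXB2, HOXB5, HOXB6, HOXB7, HOXB8, HOXB13, HOXD3 and HOXD4. HOXB7 and HOXB8 had no H3K4me1 region in KO cells and 4269 and 3071 bp in WT cells. The 10 genes marked in both genotypes were all shorter in KO cells, with a median ratio of 0.111, against 0.205 over all genes marked in both, and 9 were at least 1.5 times shorter (81.4% of all genes). At HOXB9, 127 bp were covered in KO cells and 3926 bp in WT cells. At HOXD13 the lengths were 141 bp in KO cells and 2871 bp in WT cells. The genes gained in KO cells were HOXC9, HOXC10, HOXC13, HOXD10 and HOXD11 (5 of 18, against 25.3%), all posterior, with 139 to 605 bp. Posterior genes were marked in 9 of 16 cases in KO cells and 6 of 16 in WT cells, and central genes in 4 of 15 and 10 of 15.

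The H3K4me1 lists differed as a whole as well. Over the whole list, the median region was 220 bp in KO cells and 300 bp in WT cells, and all gene windows were covered to 0.986% in KO cells and 3.30% in WT cells, so that the HOX difference went with one across the genome. Of the 18 KO regions at HOX genes, 4 overlapped a WT region (30.8% of all KO regions). With only regions of −log10 q of at least 5, 2 HOX genes were marked in KO cells, 18 were lost and 1 was gained. The 2 were HOXC11 and HOXC10, whose strongest KO regions stood at 9.62% and 16.2% of the list by rank.

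**Figure D5:**
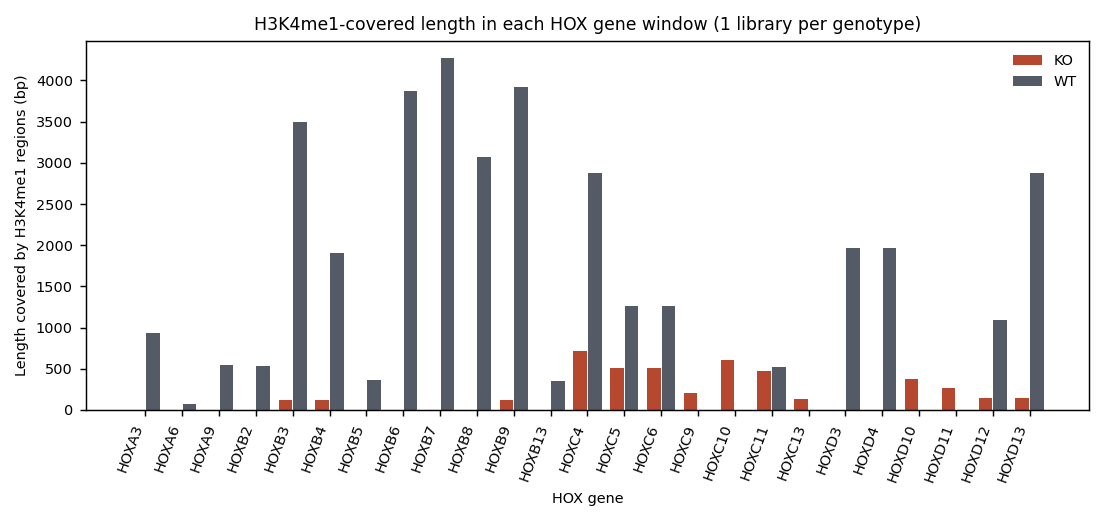
Length covered by H3K4me1 regions (bp) in the windows of HOX genes marked in KO or WT cells (1 HOXA gene left out), with KO bars left of WT bars (1 library each). WT bars reach 4269 bp at HOXB7, KO bars stay at or under 713 bp, and HOXC9, HOXC10, HOXC13, HOXD10 and HOXD11 have a KO bar only.

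The 2 active marks overlapped more in WT cells than in KO cells, at HOX genes as over the whole lists. Of the HOX genes with H3K27ac, 11 of 23 in KO cells (63.5% of all genes) and 21 of 22 in WT cells (98.8%) also had H3K4me1. By regions, 5 of the 30 H3K27ac regions at HOX genes overlapped H3K4me1 in KO cells (24.5% of all KO H3K27ac regions). In WT cells 19 of 23 did (73.4% of all WT H3K27ac regions). Of the H3K27ac-covered length at HOX genes, 2.30% was also under H3K4me1 in KO cells and 85.7% in WT cells. HOXA7 was the WT gene with H3K27ac and no H3K4me1. At HOXB9 the strongest WT H3K4me1 region ranked 523 (0.546% of its list) and lay inside the WT H3K27ac region.

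The KDM6A antibody listed regions at few HOX genes in ARP1 cells. It gave 0 of 39 HOX genes in KO cells (95% interval 0 to 9.03%, against 11.4% of all genes) and 1 of 39 in WT cells (2.56%, 0.0649 to 13.5, against 29.6%). That gene was HOXD13, so that 1 of 1 was lost in KO cells (68.6% of all genes marked in WT) and 0 of 38 were gained (2.95%). The region lies outside the gene body, and with gene bodies alone 0 genes were lost. The KO library was the deeper of the pair, and its list held 44936 regions. A region in a KDM6A antibody list is therefore not by itself a sign of the protein. In KARPAS, 9 HOX genes were marked (23.1%, 11.1 to 39.3, against 44.4% of all genes): HOXA3, HOXA10, HOXB1, HOXC4, HOXC5, HOXC6, HOXC10, HOXD11 and HOXD13. Compared with ARP1 WT cells, 8 of 38 were gained (33.3% of all genes) and 0 of 1 was lost (29.3%). With 10 kb on each side, 17 were gained and 1 was lost. KARPAS regions covered 5911 bp of the clusters and those of ARP1 WT cells 531 bp. This was 1.08% and 0.0969% of their length, against 0.784% and 0.499% of all gene windows. By length KARPAS was thus above all gene windows, though its share of marked genes was below that of all genes. HOXC4 had the most KARPAS coverage, 2347 bp, with a region of 573 bp at 4.25% of the list by rank.

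The HA antibody reports tagged protein, and the WT cells are not called tagged, so their list shows signal without a tag. That list held 78725 regions from 16.6 M tags, against 54338 from 25.3 M in HA-tagged cells. A region in the HA-tagged list is therefore not by itself a sign of tagged protein. The antibody marked 3 HOX genes in HA-tagged cells (7.69%, 1.62 to 20.9, against 36.4% of all genes) and 3 in WT cells (7.69%, 1.62 to 20.9, against 29.3%), with no gene in common. In HA-tagged cells they were HOXA3 (381 bp), HOXC4 (205 bp) and HOXD13 (647 bp), 3 of 36 unmarked in WT cells (25.8% of all genes). In WT cells they were HOXB3 and HOXB4 (200 bp, the same region) and HOXB9 (420 bp), 3 of 3 unmarked in HA-tagged cells (38.0%). All 3 WT HA regions lay inside WT H3K27ac regions (20.3% of all WT HA regions overlapped one) and had −log10 q under 5, and the HA-tagged region at HOXD13 ranked at 13.2% of its list.

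The flank of HOXD13 and MIR196A1 were the sites in the clusters listed with both the KDM6A antibody in ARP1 WT cells and the HA antibody in HA-tagged cells. Between the end of HOXD13 and the start of HOXD12, a KDM6A region was listed in KARPAS (chr2:176096471-176097025, 555 bp, 46.2% by rank) and in ARP1 WT cells (chr2:176096710-176096961, 252 bp, 48.9%), and an HA region in HA-tagged cells (chr2:176096364-176097010, 647 bp). All lay entirely inside the WT H3K27ac region there, and the KDM6A library of KO cells and the HA library of WT cells had no region. Over MIR196A1, HA-tagged cells had a region of 656 bp (chr17:48632209-48632864, 4.06% by rank) and ARP1 WT cells a KDM6A region of 279 bp (chr17:48632338-48632616, 59.3%), while the KDM6A library of KO cells, the HA library of WT cells and KARPAS had none. At HOXC4, away from H3K27ac, HA-tagged cells and KARPAS each had a short region, at chr12:54050138-54050342 and chr12:54050090-54050308, that overlapped.

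Input DNA, called without a control like the rest, gave the background. It marked 4 HOX genes in KO cells (17.1% of all genes), 0 in JmjD-dead cells (5.45%) and 1 in WT cells (8.29%). They were HOXA3, HOXA4, HOXB3 and HOXC13 in KO cells and HOXB5 in WT cells, each with regions 2 fragments high. No ChIP region in the 4 clusters overlapped an input region, so removing regions on input could not change a HOX count, and at this input depth that is no check of them.

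Genes around and beside the clusters were mostly marked with H3K27ac, as were most protein-coding genes (71.3% in KO, 69.3% in JmjD-dead and 69.0% in WT cells). Of the 16 genes flanking the clusters, 2 on each side, 14 had H3K27ac in each of the 3 genotypes, the exceptions being EVX1 and EVX2, homeobox genes at the ends of HOXA and HOXD, which had no region in any list. The list of genes that set HOX chromatin (among them KMT2A, EZH2 and SUZ12) had H3K27ac at 10 of 10 in each genotype. Of 9 genes for the TALE proteins that bind DNA with HOX factors (MEIS, PBX and PKNOX), 8 had H3K27ac in KO cells, 8 in JmjD-dead cells and 7 in WT cells, with PKNOX2 marked in KO and JmjD-dead cells and not in WT cells. CDX2 was the 1 of 5 EVX and CDX genes with H3K27ac, in each genotype. H3K4me1 marked 9 of the 9 TALE genes in KO cells (52.9% of all genes) and 7 in WT cells (73.0%).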

How the data were processed

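ChIP-seq of ARP1 and KARPAS cells was used, 1 library per group; the 4 mouse lists were not used. The submitters' processing notes name GRCh38 and the tools Bowtie2, Trimmomatic, MultiQC, FastQC and MACS2 2.1.2. Regions were called library by library without a control at a q-value of 0.05, with MACS 2.1.1.20160309, or 2.2.7.1 for H3K27ac, H3K27me3 and input, per the file headers, and single-end HA and KDM6A tags were extended to 200 bp. Without a control, a region is judged against its library's mean. The deposited values per region are −log10 q-value, −log10 p-value, fold enrichment as a ratio and pileup signal, the authors' own, used here only to rank, filter or describe regions within a list.

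Rows sharing coordinates were merged, and the numbered chromosomes and X were kept. Genes came from RefSeq GRCh38.p14. Covered length counts bases of a window under regions. Lost means marked in the second library of a comparison and unmarked in the first, gained the opposite. Counts of marked HOX genes by library are set beside the share over all 19974 genes. Lost counts are set beside the share of all genes marked in the second library, gained counts beside that of genes unmarked there. Counts of longer or shorter coverage are set beside all genes marked in both, and region counts beside all regions of the list. Not every count by cluster or position has such a share. Genes were named where they changed state, led their cluster or had no region with an antibody. The members and lists were chosen with earlier results of these data known. Alternatives were extensions of 0 and 10 kb, equal list lengths, regions of −log10 q 5 or more, removal of regions on input, and, added after seeing the data, removal of H3K27me3 regions on H3K27ac. Strand was known for 20 HOX genes. Scripts ran in Python 3.11.15 with matplotlib 3.10.9, scipy 1.17.1, numpy 2.4.6 and pandas 2.3.3. The functions were tested on simulated data for 400 genes, and 3 of 3 steps returned the seeded answer. The values of 1 HOX gene are not reported here, though it is in the counts.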

Additional observations from a re-analysis of the deposited data

How the results depend on the processing

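No paired analysis was possible because each group had 1 library. Of 84 recomputed counts of lost or gained HOX genes, 55 stayed within 1.5 times the reported count, 16 of these with regions on input removed, which took away nothing in the clusters. With a −log10 q of at least 5, losses and gains were 1 and 4 for H3K27ac in KO cells, 2 lost for H3K27ac in JmjD-dead cells, 2 and 0 for H3K27me3 in KO cells, 0 gained for H3K27me3 in JmjD-dead cells, 18 and 1 for H3K4me1, and 0 and 1 for HA. With equal list lengths, 1 was lost for H3K27ac in KO cells, 0 were gained for H3K27me3 in JmjD-dead cells and 1 was lost for HA. With gene bodies alone, 0 were gained for H3K27ac in KO cells, 3 lost for H3K27ac in JmjD-dead cells, 0 gained for H3K27me3 in KO cells, 1 lost and 2 gained for H3K27me3 in JmjD-dead cells, and 0 lost for KDM6A in KO cells. With 10 kb on each side, 0 were gained for H3K27ac in KO cells, 3 lost for H3K27ac in JmjD-dead cells, 8 lost and 4 gained for H3K27me3 in KO cells, 3 lost for KDM6A in KO cells, 7 gained for HA, and 1 lost and 17 gained for KARPAS. With H3K27me3 regions on H3K27ac removed, 0 were gained in KO cells and 2 in JmjD-dead cells. Fewer or wider regions and windows change such counts by construction; other causes were not tested. The log2 ratio of H3K27me3-covered length, JmjD-dead to WT, was 0.78 and turned to −0.28 with equal list lengths. Of the 34 recomputed ratios of covered length, 29 stayed within 1.5 times of the reported ratio. Most of the 29 came from other window extensions or from removal of regions on input. Those settings left the covered length of whole clusters unchanged or nearly so, and are no check of the ratios. With the other settings, 4 ratios moved further and 1 turned round. One library per group gives no spread between replicates, and H3K27me3 and input depth limits what could be listed.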

Other observations

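Inside the HOXD cluster but outside every HOX gene window, a region lay in the gap between HOXD8 and HOXD4, at chr2:176140248-176141472 in KO cells. Its H3K27ac length was 1225 bp in KO cells (3.60% of the list by rank), 721 bp in JmjD-dead cells (8.82%) and 979 bp in WT cells (9.74%). H3K4me1 there was 164 bp long in KO cells (38.3%) and 925 bp in WT cells (3.98%). Among long noncoding RNA genes of the clusters, HAGLR in HOXD was covered by 1724 bp of H3K27ac in KO cells, 1251 bp in JmjD-dead cells and 1354 bp in WT cells, and KARPAS had 641 bp of KDM6A regions there. HOTAIR, beside HOXC11, had 406 bp in KO cells, 0 bp in JmjD-dead cells and 418 bp in WT cells. HOTTIP, at the posterior end of HOXA, had no region in any list. In the acetylated stretch around MIR196A1, H3K27me3 regions lay wholly on H3K27ac of the same genotype, with 391 bp in KO cells (chr17:48631501-48631891), 315 bp in JmjD-dead cells (chr17:48631608-48631922) and 281 bp in WT cells (chr17:48632761-48633041).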
